A study of Mus musculus with 12 samples.

Results

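Antibody genes were followed in subcutaneous CT-26 tumors of swimming and non-swimming mice. The set held 10 of the 30630 genes listed in the tumors: the constant genes of the antibody heavy chains (Igha, Ighm, Ighg1, Ighg2b and Ighg3), of the kappa light chain (Igkc) and of the lambda light chains (Iglc1 and Iglc2), together with Jchain and Mzb1. The genes were found by their Ensembl identifiers. They were chosen by name with the FPKM levels of these tumors already known, among them a higher Igha level in the swimming group. The difference between the groups is therefore described for these 10 genes and not tested.

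CT-26 is a mouse colon carcinoma line of the BALB/c strain. Male BALB/c mice, bought at 4 to 6 weeks of age, carried CT-26 cells injected in Matrigel under the skin of the right flank. The swimming group was trained by swimming for 3 weeks and the control group was not. Each group was given by 6 tumors, and RNA-seq of whole tumors gave 1 FPKM value (mapped fragments scaled by transcript length and by library size) per gene and tumor. BALB/c mice keep their own B cells. In whole tumors, fewer cells of a type and less RNA per cell cannot be told apart.

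An antibody is built from 2 heavy and 2 light chains. Each B cell joins variable segments into 1 heavy-chain gene and 1 light-chain gene, either kappa or lambda, and first uses the mu constant gene Ighm. After class switching the same variable part is carried on another constant gene, such as Ighg1, Ighg2b or Ighg3 for IgG or Igha for IgA. Plasma cells are the end stage of this lineage and hold very large amounts of these transcripts. IgA is the main antibody of mucosal surfaces, and the joining chain encoded by Jchain links IgA or IgM units into larger forms. Mzb1 encodes a chaperone of the endoplasmic reticulum of B and plasma cells.

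The sequence that sets Igha and Ighm apart from the IgG genes is the tailpiece, the short end of the secreted heavy chain through which IgA and IgM units join with the joining chain. The last 60 coding bases of the secreted transcripts are shown for that reason, from the GENCODE M21 transcripts of the GRCm38 build, 5′ to 3′ on the minus strand of chromosome 12. Igha is read at chr12:113258771-113258830, Ighm at chr12:113420870-113420929 and Ighg1 at chr12:113328979-113329038. Capitals mark bases equal to the base at the same position of the other gene, which is Ighm for Igha and Igha for both Ighm and Ighg1.
Igha: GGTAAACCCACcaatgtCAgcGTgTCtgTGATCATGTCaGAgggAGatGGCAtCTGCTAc
Ighm: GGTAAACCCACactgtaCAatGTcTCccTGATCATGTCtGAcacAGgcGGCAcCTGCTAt
Ighg1: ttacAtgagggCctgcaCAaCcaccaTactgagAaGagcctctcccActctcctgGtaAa
Igha and Ighm had the same base at 41 of the 60 positions, and Ighg1 matched Igha at 11. Positions were counted from the end of the coding sequence. Ighg1 ends in GGTAAA, the bases with which the Igha and Ighm lines begin. Its 60 bases thus lie ahead of the tailpiece, and the 11 matches do not compare tailpieces.

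The lambda constant genes raise a different point, namely how far reads of near copies can be told apart. The first 150 coding bases shared by the constant exons of Iglc2 (chr16:19198703-19198852) and of Iglc3 (chr16:19065532-19065681) are shown in the same build, also from the minus strand, with the bases that differ in capitals.
Iglc2: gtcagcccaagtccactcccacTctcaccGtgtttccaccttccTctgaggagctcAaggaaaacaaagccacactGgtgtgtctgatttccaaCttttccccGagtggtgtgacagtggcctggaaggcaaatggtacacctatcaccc
Iglc3: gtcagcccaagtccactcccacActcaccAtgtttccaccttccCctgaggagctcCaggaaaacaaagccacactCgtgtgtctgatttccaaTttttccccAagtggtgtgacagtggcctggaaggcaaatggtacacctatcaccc
Of these bases 143 were identical, and over 314 coding bases the genes differed at 11. Of all 50-base stretches of its transcripts, Iglc2 shared 7.65% with other constant genes, Ighg2b 4.15%, Ighg3 1.58% and Ighg1 0.393%. Igha, Igkc, Ighm, Iglc1, Jchain and Mzb1 shared none. Values of Iglc2 and of the IgG genes are therefore less certain in which gene they belong to than those of Igha, Igkc, Ighm and Jchain.

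The heavy-chain genes lie side by side on chromosome 12 of GRCm38, on the minus strand. Igha (ENSMUSG00000095079) spans chr12:113254830-113260236, Ighg2b chr12:113302965-113307933, Ighg1 chr12:113325240-113330523, Ighg3 chr12:113356224-113361232 and Ighm (ENSMUSG00000076617) chr12:113418558-113422730. Igkc (ENSMUSG00000076609) lies at chr6:70726435-70726966, Jchain (ENSMUSG00000067149) at chr5:88519809-88527891, Iglc1 at chr16:19061618-19062071, Iglc2 at chr16:19198396-19200351 and Mzb1 at chr18:35647267-35649367.

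Summed FPKM lay between 380138.5 and 407109.1, and between 22293 and 23974 genes were above 0 per tumor. FPKM is already scaled by library size, so these sums do not give the size of the libraries. Relative depth was estimated as the most frequent ratio of control tumor 1 to each tumor over genes between 0 and 1 FPKM in both. It was 0.694 in control tumor 2, where 595 of 7600 such genes had that ratio, and at least 0.871 in the rest. Control tumor 1 stood apart. It held Cd79a, the signaling chain of the B cell receptor, at 2.67 FPKM against at most 0.428 in the other control tumors, and Ighd, the delta heavy chain of naive B cells, at 2.04 against at most 0.0253. Its adipocyte marker genes summed to 139 FPKM, against a control median of 1.35 and a range from 0.53 to 24.5 in the swimming group. Differences without control tumor 1 are given for each member. Labelled cell type was also looked at in a list of 8 carcinoma epithelium genes, which summed to 134 to 323 FPKM in control and 119 to 168 FPKM in swimming tumors. Krt20 was at 99.8 to 194 FPKM and Krt18 at 5.9 to 14.8, while the epithelial genes Epcam and Cdh1 did not pass 0.43 in any tumor. The other genes of the list are not shown, so these values do not decide the cell type.

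Igha, Igkc and Jchain, the genes of the IgA heavy chain, the kappa light chain and the joining chain, were each about 3 times as high on average in the swimming group as in the control group. That average came from a wide spread, with 3 swimming tumors far above the rest. Igha was at 7.79, 3.44, 2.5, 3.27, 1.9 and 2.87 FPKM in control tumors 1 to 6 and at 4.63, 2.73, 20.8, 5.43, 16.6 and 14.7 FPKM in swimming tumors 1 to 6. Swimming tumors 3, 5 and 6 were higher than every control tumor, and swimming tumor 2 was below the control median of 3.07. The group means were 3.63 ± 2.11 FPKM without swimming and 10.8 ± 7.49 FPKM with it (SD, n = 6 each). The difference was 1.16 on the log2(FPKM + 1) scale, with a standard error of 0.42, and 1.36 without control tumor 1.

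Igkc, carried by most mouse antibodies, was the most abundant of the 10 genes in every tumor. It was at 25.5, 12.7, 6.88, 6.72, 4.26 and 9.73 FPKM in control tumors 1 to 6 and at 10.5, 8.8, 57.6, 17.7, 56.7 and 50 FPKM in swimming tumors 1 to 6. All 6 swimming tumors were above the control median, but only tumors 3, 5 and 6 were above control tumor 1. The means were 11 ± 7.70 and 33.5 ± 23.6 FPKM, a difference of 1.36 ± 0.52 (SE) on the log2(FPKM + 1) scale that became 1.63 without control tumor 1.

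Jchain was at 2.67, 1.7, 0.956, 0.84, 0.621 and 0.872 FPKM in the control tumors and at 1.74, 0.691, 6.46, 2.11, 6.49 and 4.84 FPKM in the swimming tumors. The groups overlapped in the same way as for Igha, with swimming tumors 3, 5 and 6 on top and control tumor 1 next. The means were 1.28 ± 0.774 and 3.72 ± 2.53 FPKM, and the log2(FPKM + 1) difference was 0.91 ± 0.36 (SE), or 1.06 without control tumor 1.

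Ighm, the constant gene of IgM and of antigen receptors on naive B cells, varied less. It was at 9.38, 6.28, 4.92, 3.3, 2.63 and 4.47 FPKM in the control tumors and at 3.99, 5.5, 6.41, 7.69, 16.4 and 9.47 FPKM in the swimming tumors. Only swimming tumors 5 and 6 were above control tumor 1, and swimming tumor 3, the highest for Igha, was near the middle. The means were 5.16 ± 2.43 and 8.25 ± 4.43 FPKM, and the difference of 0.55 ± 0.30 (SE) on the log2(FPKM + 1) scale became 0.72 without control tumor 1.

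**Figure D1:**
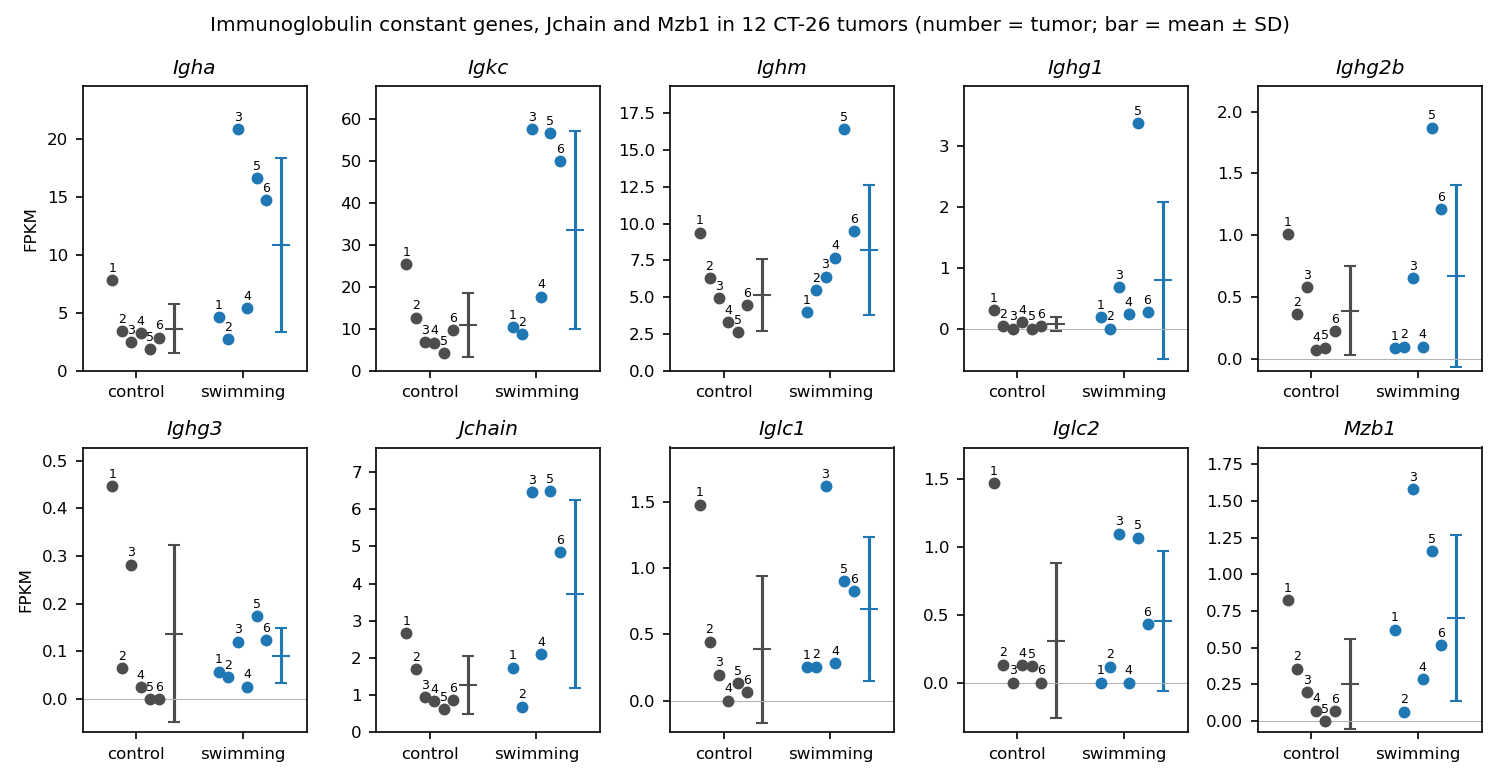
Level of each of the 10 genes in FPKM (vertical axes, scaled separately from panel to panel) in the 6 control and 6 swimming tumors, each point 1 tumor, with the mean and SD of each group. Igha, Igkc and Jchain reach 20.8, 57.6 and 6.49 FPKM in the swimming group, and the groups overlap in every panel.

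The IgG genes, which mark B cells that have switched class, were much lower. Ighg1 was listed at 0.303, 0.0468, 0, 0.111, 0 and 0.0458 FPKM in the control tumors and at 0.189, 0, 0.684, 0.236, 3.38 and 0.277 FPKM in the swimming tumors. Swimming tumor 5 alone carried most of the swimming mean. The difference on the log2(FPKM + 1) scale was 0.52 and became 0.22 without that tumor and 0.58 without control tumor 1. Ighg2b was at 1.01, 0.362, 0.579, 0.0718, 0.0898 and 0.222 FPKM in the control tumors and at 0.0862, 0.0975, 0.651, 0.0963, 1.87 and 1.21 FPKM in the swimming tumors. Both groups held tumors below 0.1 and tumors above 1 FPKM. Their means were 0.389 ± 0.358 and 0.669 ± 0.740 FPKM, with a log2(FPKM + 1) difference of 0.19 ± 0.25 (SE) that lay between 0.01 without swimming tumor 5 and 0.31 without control tumor 1.

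Ighg3 was the member that was lower on average in the swimming group, at 0.0912 ± 0.057 FPKM against 0.136 ± 0.186 FPKM in the control group. The control mean rested on control tumors 1 and 3, at 0.447 and 0.282 FPKM, while 2 control tumors were listed at 0. Without control tumor 1 the log2(FPKM + 1) difference was 0.03 in the other direction. Ighg3 did not pass the filter of at least 0.1 FPKM in at least 6 tumors, and no direction can be read from it.

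The lambda light chains, a minor class in mice, were near or below 1 FPKM. Iglc1 was at 1.48, 0.445, 0.195, 0, 0.132 and 0.0654 FPKM in the control tumors and at 0.254, 0.256, 1.62, 0.284, 0.9 and 0.824 FPKM in the swimming tumors. Iglc2 was at 1.47 FPKM in control tumor 1, at most 0.132 in the other control tumors, and at 1.1, 1.07 and 0.433 FPKM in swimming tumors 3, 5 and 6. It was listed at 0 in 2 control and 2 swimming tumors. Control tumor 1 therefore decided most of the control mean of both genes, and their log2(FPKM + 1) differences of 0.30 and 0.16 became 0.49 and 0.36 without it. Without swimming tumor 3 they became 0.17 and 0.04, so single tumors moved both in either direction.

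Mzb1 was at 0.822, 0.357, 0.196, 0.0708, 0 and 0.0656 FPKM in the control tumors and at 0.622, 0.0641, 1.58, 0.285, 1.16 and 0.517 FPKM in the swimming tumors. The highest values were again in swimming tumors 3 and 5. The means were 0.252 ± 0.307 and 0.704 ± 0.565 FPKM, a log2(FPKM + 1) difference of 0.41 ± 0.21 (SE) that became 0.53 without control tumor 1.

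Across the 10 genes, 9 were higher on average in the swimming group, which also held for 51.7% of the 19018 genes that passed the filter. Igha and Igkc differed by more than 2-fold on the log2(FPKM + 1) scale, as did 0.0841% of all tested genes in that direction. Past a fold of 2 with an unadjusted p below 0.05 were 0.0684% of all tested genes as higher and 0.0368% as lower. Since the genes were chosen with this contrast known, nothing is read from these counts. None of the 10 had groups that did not overlap, against 0.147% of all tested genes. The median difference over the 10 genes was 0.47, and over all tested genes it was 0.00387. Of the 10 genes, 9 passed the filter.

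The transcripts varied together from tumor to tumor, and over all 12 tumors most closely those of IgA, kappa and the joining chain. Over the 12 tumors, Pearson's r on log2(FPKM + 1) was 0.98 for Igha with Igkc, for Igha with Jchain and for Igkc with Jchain. Within the control group alone, r was 0.94 for Igha with Igkc and 0.92 for Igha with Jchain, and within the swimming group 0.98 and 0.99. A close relation was therefore seen among 6 tumors of either group, but in the control group other pairs were as close. There r was 0.96 for Igkc with Ighm and for Igha with Ighg1, 0.95 for Ighm with Jchain and 0.99 for Jchain with Mzb1. Control tumor 1 was the highest control tumor for Igha, Igkc and Jchain, and r within the control group without it was not computed. Ighm followed Igha less closely, with r = 0.75 over the 12 tumors, 0.86 within control and 0.61 within swimming. Over all 45 pairs of the 10 genes the median r was 0.76, from 0.25 for Ighg1 with Ighg3 to 0.98. The points share their library and the scaling to its depth, so these values are descriptions.

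The ratios showed the same order. Igkc over Igha stayed between 2.06 and 3.7 across the 12 tumors, a 1.80-fold range, although Igha itself spanned 11-fold and Igkc 13.5-fold. Jchain over Igha lay between 0.253 and 0.495. Ighm over Igha lay between 0.308 in swimming tumor 3 and 2.01 in swimming tumor 2, a 6.54-fold range. Over the 12 tumors, IgA, kappa and joining chain transcripts thus kept steadier proportions than mu and alpha did. The wider range of Ighm over Igha came from the swimming group. In the control group it lay between 1.01 and 1.97, with Jchain over Igha between 0.257 and 0.495. Without swimming tumor 3, r of Igha with Ighm was 0.88.

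**Figure D2:**
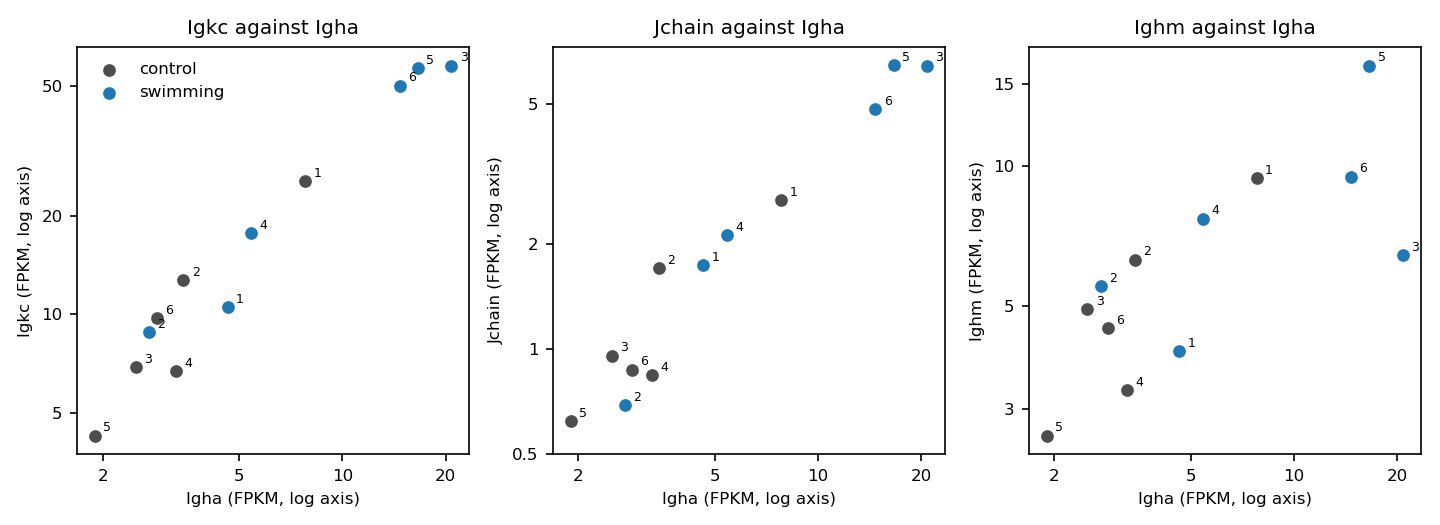
Igkc, Jchain and Ighm against Igha, all in FPKM on log axes, each point 1 tumor numbered by its replicate, gray for control and blue for swimming. Igkc and Jchain lie along a line with Igha (r = 0.98 each, n = 12), while Ighm scatters more widely (r = 0.75), with swimming tumor 3 farthest to the right.

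The isotypes of the heavy chain were compared as shares of the summed FPKM of Igha, Ighm, Ighg1, Ighg2b, Ighg2c, Ighg3 and Ighd in each tumor. FPKM is scaled by transcript length, so these shares set levels of different genes side by side. Igha made up 35.2, 32.5, 29.6, 47.1, 39.4 and 36.4% of the sum in the control tumors and 49.8, 30.3, 68.5, 38.3, 40.6 and 53.9% in the swimming tumors. Swimming tumors 1, 3 and 6 were above every control tumor, and the groups overlapped. The means were 36.7 ± 6.09% and 46.9 ± 13.5% (SD, n = 6 each), a difference of 10.2 percentage points that ranged from 5.91 to 13.5 when tumors were left out in turn.

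Ighm took 53.1 ± 6.70% of the heavy-chain sum in control and 42.4 ± 14.2% in swimming tumors, with 21.1% in swimming tumor 3 as the lowest share. The IgG genes together took 8.61 ± 3.36% and 9.88 ± 4.63%. Swimming tumor 5 had the highest IgG share, 18.5%, of which Ighg1 gave 8.28 percentage points. In FPKM, the IgG sum was 1.00 ± 0.982 in control and 2.62 ± 2.67 in swimming tumors. Of the heavy-chain FPKM listed, Igha and Ighm thus made up the larger part in all 12 tumors, and the IgG genes the smaller part. BALB/c mice carry an IgG2a gene in the place of Ighg2c. How its reads were assigned was not tested, so the IgG share may be too low. The delta chain Ighd reached 9.22% in control tumor 1 and no more than 2.04% elsewhere.

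**Figure D3:**
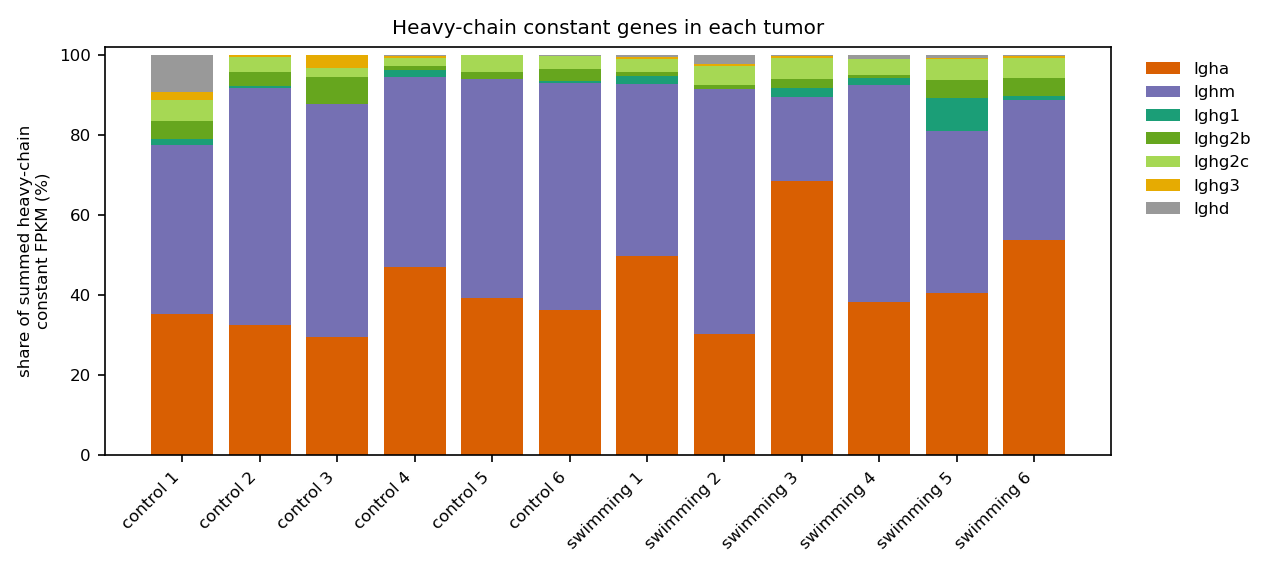
Share of each listed heavy-chain constant gene in their summed FPKM (vertical axis, percent) in each of the 12 tumors. Igha and Ighm fill most of every bar, Igha is largest in swimming tumor 3 at 68.5%, the Ighg1 share is largest in swimming tumor 5, and a visible Ighd share of 9.22% appears in control tumor 1.

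Among the light chains, kappa made up 95.1 ± 4.06% of the summed constant FPKM in control and 94.3 ± 2.33% in swimming tumors. The lowest share was 87.7% in control tumor 1 and the highest 99.3% in control tumor 6. Kappa was the main light chain in every tumor, and the group means were closer to each other than the spread within either group. Single tumors moved the difference between the means, from -2.27 percentage points without control tumor 1 to 0.0473 without control tumor 6. The sum of the light chains over the sum of the heavy chains was 1.10 ± 0.196 in control and 1.5 ± 0.395 in swimming tumors, with 2.04 in swimming tumor 3 and 1.9 in swimming tumor 6 as the highest values.

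Variable segments report on how many different B cell clones stand behind the constant genes, since each clone carries its own joined segments, although a segment can serve many clones. They were not used to choose the 10 genes, but reads of joined antibody genes span both, so they are no independent support. The tumors listed 151 variable segments, of which 66 were heavy-chain and 82 kappa segments. In the control tumors 78, 48, 33, 38, 27 and 50 segments were above 0 FPKM, and in the swimming tumors 53, 41, 105, 76, 104 and 93. The means were 45.7 ± 18.1 and 78.7 ± 26.9 segments, with 3 swimming tumors above every control tumor. Without control tumor 1 the control range was 27 to 50 segments. A deeper or more abundant set of transcripts also brings more segments above 0, and the part of that in these counts was not tested.

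The sum over all segments was 51.3, 22.8, 16.4, 12.5, 6.7 and 17.8 FPKM in the control tumors and 23.6, 16.4, 101, 31.3, 114 and 78.9 FPKM in the swimming tumors. It moved with Igkc (r = 0.99, n = 12 tumors) and with Igha (r = 0.97), and without control tumor 1 the control range was 6.7 to 22.8 FPKM. The ratio of the segment sum to Igkc stayed between 1.57 and 2.38. The 3 swimming tumors with the highest constant gene levels were thus also the highest in variable segments.

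The segments were spread over many genes. In swimming tumor 3 the highest kappa segment was Igkv3-4 at 5.21 FPKM, or 7.23% of all kappa segment FPKM. In swimming tumor 5 it was Igkv1-117 at 14.1 FPKM (16.5%), and in swimming tumor 6 Igkv3-2 at 6.64 FPKM (11.3%). The highest kappa segment was thus a different gene in each of these tumors. Control tumor 1 also had Igkv1-117 on top, at 3.82 FPKM (10.3%), and in control tumor 4 Igkv3-10 took 20.5% of a small sum. Igkv10-96, Igkv8-30, Igkv4-57 and Igkv3-4 led in control tumors 2, 3, 5 and 6. Igkv3-10 led in swimming tumors 1 and 2, and Igkv1-110 in swimming tumor 4.

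Among heavy-chain segments, Ighv2-9 led in swimming tumor 3 at 3.24 FPKM, Ighv5-6 in swimming tumor 5 at 2.60 and Ighv14-3 in swimming tumor 6 at 1.6. Ighv3-6 led in swimming tumors 1 and 4 and Ighv9-3 in swimming tumor 2. The control tumors were led by Ighv2-2, Ighv14-2, Ighv3-6, Ighv1-9, Ighv1-67 and Ighv14-3, in the order of their numbers. The share of the top heavy-chain segment was at most 17.6% in the swimming group and reached 35.7% in control tumor 3. No segment took most of the heavy or kappa sum in any tumor, and only 3 of the 151 segments were above 0 in all 12 tumors.

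Of the 151 segments, 57 passed the filter. Some reached it through the swimming tumors, such as Igkv6-15, which was listed at 0 in 4 control tumors and at 0.372 to 2.48 FPKM in the swimming tumors. The segments also come from the same antibody transcripts as the constant genes, whose difference was known. No test of the segments is therefore given.

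**Figure D4:**
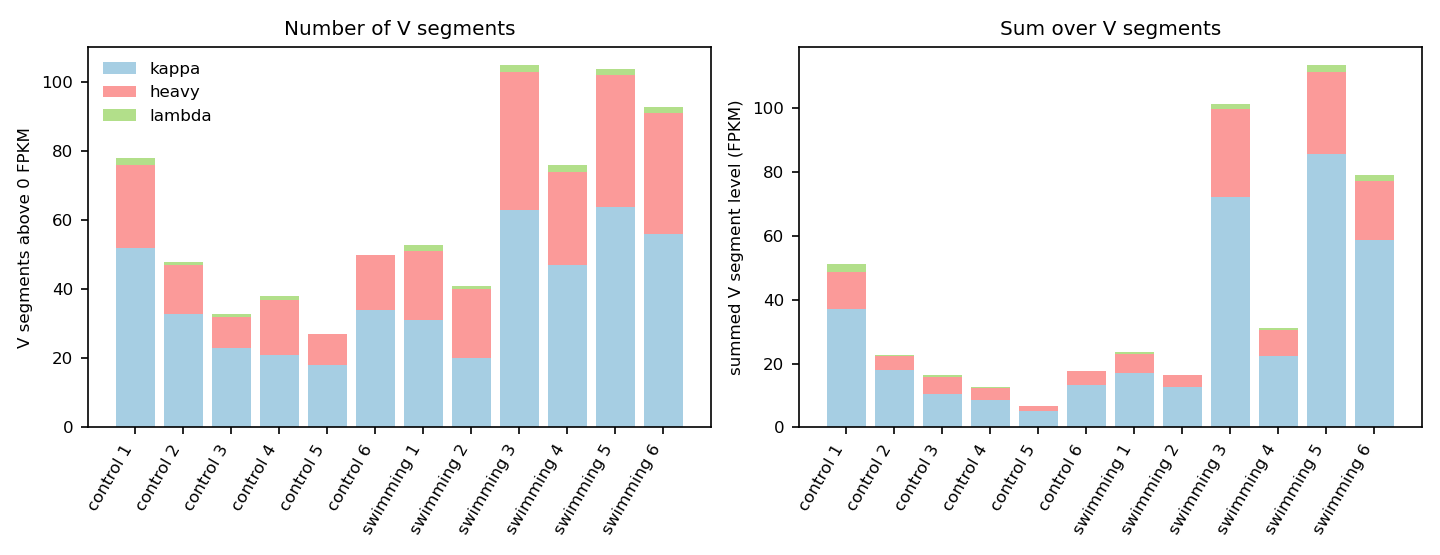
Number of variable segments above 0 FPKM (left) and their summed level in FPKM (right) in each of the 12 tumors, split into kappa, heavy and lambda segments. Swimming tumors 3, 5 and 6 hold 105, 104 and 93 segments, and control tumor 1 holds 78, the highest number of the control group.

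Genes around antibody production were taken from 7 lists of 93 genes, of which 89 were listed and 69 passed the filter. At an unadjusted limma p below 0.05, 6 were higher and 2 lower in the swimming group, together 11.6% of the 69. Over all tested genes 5.56% passed in either direction, 3.11% as higher and 2.46% as lower. The lists were written with earlier results of these data known, so nothing is read from the larger share. Of the 6, Iglc3 and Derl3 reached the filter only with the tumors of the swimming group, where they were higher. Ighg2c and Iglc3 come from antibody transcripts, as do the members, whose difference was known. The calls of Iglc3, Derl3 and Ighg2c, which the 11.6% includes, are therefore not read as results. None passed a fold of 2, and none passed an adjusted p of 0.05. The count rested on single tumors: it was 13 of 68, 11 of them higher, without control tumor 1, 12 without swimming tumor 1 and 5 without control tumor 5. The median difference over the 69 genes was 0.02 on the log2(FPKM + 1) scale. The lists held genes that the tumor cells and macrophages also use.

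Of the other constant genes, Ighg2c and Iglc3 passed the filter. Ighg2c, an IgG heavy chain, shares 5.49% of its 50-base stretches with Ighg2b or other constant genes. It was at 0.391 ± 0.384 FPKM in control and 1.06 ± 0.736 FPKM in swimming tumors, a difference of 0.53. That difference lay between 0.40 without swimming tumor 5 and 0.66 without control tumor 1. Ighg2c comes from antibody transcripts, as do the members, whose difference was known, so no test of it is given. BALB/c mice carry an IgG2a gene in the place of Ighg2c, and how its reads were assigned was not tested. Iglc3, the near copy of Iglc2 shown above, was listed at 0 in 4 of 6 control tumors and at 0.128 to 1.83 FPKM in the swimming tumors. It reached 0.1 FPKM in 2 control and 6 swimming tumors, so its difference of 0.63 is given without a test.

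Plasma cell identity genes showed no common direction. Of 10 tested, only Slamf7, a surface receptor of plasma cells and cytotoxic lymphocytes, passed an unadjusted p of 0.05, at 0.252 ± 0.119 and 0.473 ± 0.181 FPKM (difference 0.23, unadjusted limma p of 0.0231, adjusted p = 0.889). It no longer passed without control tumor 5, swimming tumor 3 or swimming tumor 6. Prdm1, the regulator that ends the B cell program, was at 1.92 ± 0.50 FPKM in control and 2.48 ± 0.568 FPKM in swimming tumors, with an unadjusted limma p of 0.082. Tnfrsf17, the receptor BCMA of long-lived plasma cells, was at 0.870 ± 0.364 and 1.14 ± 0.211 FPKM, with an unadjusted limma p of 0.115. Irf4, another regulator of plasma cell fate, was at 0.233 ± 0.131 and 0.368 ± 0.156 FPKM, with an unadjusted limma p of 0.105. Tnfrsf13b, the receptor TACI, was at 1.97 ± 0.457 FPKM in control and 1.49 ± 0.884 FPKM in swimming tumors, and its difference of -0.32 was the largest of the list. Of the 10 tested genes, 5 were higher and 5 lower on average, and the median difference was -0.01.

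Sdc1 and Xbp1 were high in every tumor, at 11.1 to 21.1 and 26.7 to 36.4 FPKM. Sdc1 encodes CD138, which plasma cells share with epithelial cells, and Xbp1 drives the secretory program of many cells. Their differences were -0.04 each. Over the 12 tumors the summed plasma cell identity list had r = 0.08 with Igha, and -0.02 with Igkc. The sum is mostly Sdc1 and Xbp1, and it did not follow the antibody transcripts.

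The antibody secretory machinery included the companion gene with the largest difference, and it was lower in the swimming group. Txndc5, a disulfide isomerase of the endoplasmic reticulum that many secreting cells use, was at 83.5, 82.6, 72.9, 48.1, 81.3 and 78.8 FPKM in the control tumors and at 42.9, 38.7, 43.5, 42.4, 43.9 and 37.9 FPKM in the swimming tumors. The groups did not overlap, and control tumor 4 lay between the other control tumors and the swimming group. Txndc5 fell by 0.81 on the log2(FPKM + 1) scale, with an unadjusted limma p of 1.08e-05 and an adjusted p of 0.204. Without control tumor 4 it fell by 0.93 and the adjusted p 1.86e-05, and without any other tumor the adjusted p stayed above 0.05. Fkbp11, a folding enzyme of the same compartment, was at 17.8 ± 4.33 and 13.0 ± 1.57 FPKM (difference -0.40, unadjusted limma p of 0.016, adjusted p = 0.889). Derl3, which helps to clear misfolded proteins, was at 0.111 ± 0.040 and 0.197 ± 0.0259 FPKM. It reached 0.1 FPKM in 3 control and 6 swimming tumors, so its difference of 0.11 is given without a test. The remaining 13 of 16 tested genes did not pass, among them Hspa5 at 280 ± 37.0 and 249 ± 56.1 FPKM.

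The list of B cell genes held 17, of which 8 passed the filter and none passed an unadjusted limma p of 0.05, with a median difference of 0.03. Ms4a1, which encodes CD20, was at most 0.0437 FPKM in the swimming group. Cd79a was at 0.119 to 0.541 FPKM in the swimming tumors and at 0.132 to 0.428 in control tumors 2 to 6, but at 2.67 in control tumor 1. Pax5, the regulator of B cell identity, reached 0.298 in control tumor 1 and was at most 0.064 in the other control tumors. Pou2af1, a coactivator of antibody genes, was at 1.11 in control tumor 1 and between 0.0453 and 0.306 elsewhere. Other genes of the list behaved differently. Cd72, a B cell surface receptor, was at 4.01 to 8.03 FPKM over the 12 tumors, with 7.11, 8.03 and 6.81 in swimming tumors 3, 5 and 6 and 4.57 in control tumor 1. Spib, a transcription factor that dendritic cells also use, was at 0.475 to 3.05 FPKM. The summed list was at 16.8 FPKM in control tumor 1, at 6.85 to 10.9 in the other control tumors and at 8.4 to 13.3 in the swimming tumors. Over the 12 tumors it had r = 0.65 with Igha, 0.71 with Igkc, 0.76 with Ighm and 0.84 with Iglc2.

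Of 12 tested germinal center and class-switching genes, 2 passed an unadjusted limma p of 0.05. Il21r, a receptor for a helper T cell cytokine, was at 1.87 ± 0.507 and 2.68 ± 0.745 FPKM (difference 0.35, unadjusted limma p of 0.0325, adjusted p = 0.889). It no longer passed when any of control tumors 3, 5 and 6 or swimming tumors 3, 5 and 6 was left out. Cd40, through which T cells activate B cells, was at 0.538 ± 0.127 and 0.906 ± 0.271 FPKM (difference 0.30, unadjusted limma p of 0.00939, adjusted p = 0.889). The other 10 tested genes of the list did not pass an unadjusted p of 0.05.

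No gene of the 10 tested for plasma cell survival and homing, and none of the 11 tested Fc receptors and transport genes, passed an unadjusted limma p of 0.05. Among them were Tnfsf13b, the B cell survival factor BAFF, at 0.184 ± 0.0679 and 0.288 ± 0.103 FPKM, and Cxcl12, which holds plasma cells in their niche, at 1.71 ± 0.888 and 2.44 ± 0.670 FPKM. Pigr, the receptor that carries IgA across epithelia, was listed at 0 in 11 of the 12 tumors and at 0.014 FPKM in control tumor 1. The transcript of the IgA transporter was thus close to absent from the tumors in which Igha was measured.

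**Figure D5:**
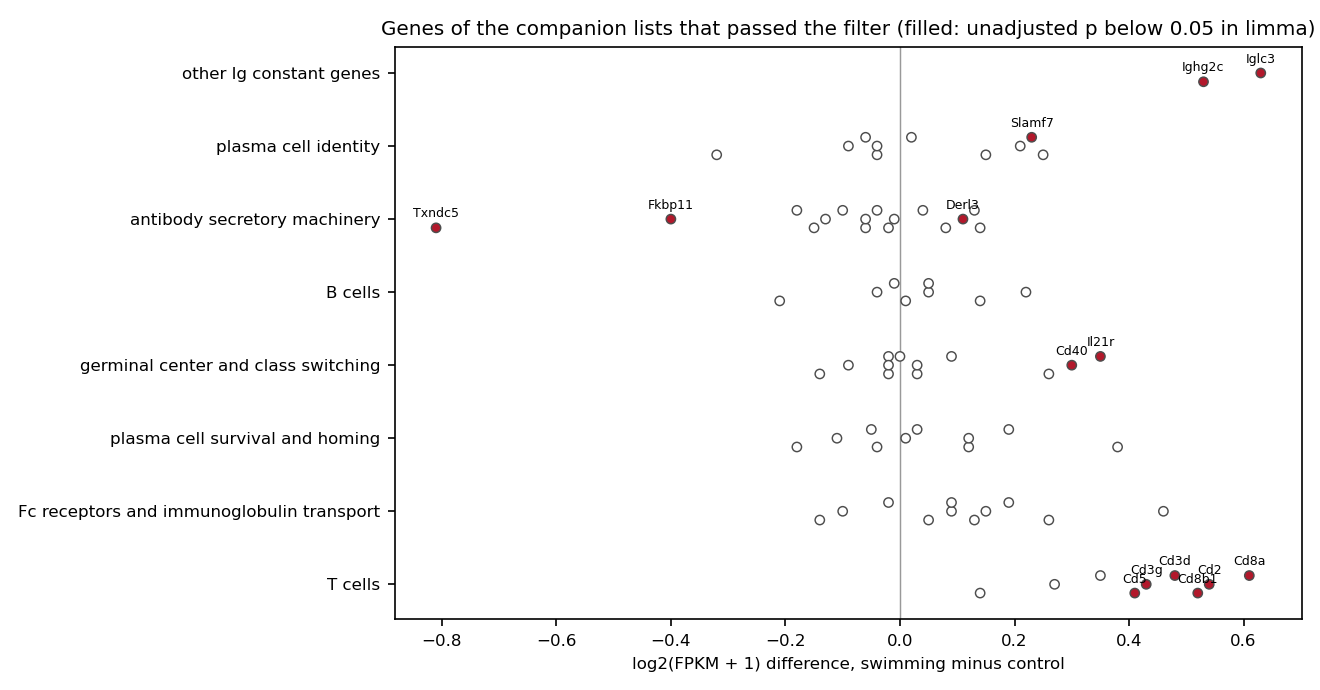
Difference between swimming and control on the log2(FPKM + 1) scale (horizontal axis) for the companion genes that passed the filter, by list, each point 1 gene. Most points lie near 0, the median over the 69 genes is 0.02, and Txndc5 lies farthest to the left at -0.81.

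Markers of some other cells moved with the antibody genes. Of 9 T cell genes tested, 6 were higher in the swimming group at an unadjusted limma p below 0.05, against 3.11% of all tested genes. Among them were Cd5 (difference 0.41, unadjusted limma p of 0.00278, adjusted p = 0.889), Cd3d (0.48, unadjusted limma p of 0.0063) and Cd8a (0.61, unadjusted limma p of 0.0187). The list was written with earlier results of these data known, and Cd5, Cd3d and Cd8a were named after their values were seen. Nothing is therefore read from this count. The summed T cell list was at 4.35 to 11.6 FPKM in control and 7.72 to 21.1 FPKM in swimming tumors, and had r = 0.91 with Ighm, 0.78 with Igkc and 0.69 with Igha over the 12 tumors. With Igha, r was 0.65 for the summed fibroblast list, 0.57 for adipocytes, 0.28 for macrophages, 0.26 for neutrophils, 0.30 for skeletal muscle, 0.21 for endothelium, 0.01 for erythroid cells, -0.01 for lymph node stroma, -0.47 for keratinocytes and -0.50 for carcinoma epithelium. Among Igkc, Jchain, Ighm and Iglc2, the fibroblast list was highest with Ighm and Iglc2 (r = 0.80 each) and the adipocyte list with Iglc2 (r = 0.90). Control tumor 1 was the highest of the 12 both for the adipocyte sum, at 139 FPKM, and for Iglc2, at 1.47 FPKM. Iglc2 was listed at 0 in 4 tumors, and r without control tumor 1 was not computed. The part of these cells in the antibody levels was not tested.

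The genes most like the 10 genes were sought among 12778 genes with a mean of at least 1 FPKM, leaving out antibody genes, by Pearson's r over the 12 tumors. C3, the central complement component, came first with r = 0.95 to the mean of the 10 genes, and was at 10.8 to 38.5 FPKM. It was followed by 1190002N15Rik and Dock2 (r = 0.93 each) and by Sp100 and Oasl2 (r = 0.91 each). C3 kept r = 0.93 within the control group and 0.98 within the swimming group. Oasl2 and Sp100 are interferon-induced genes, and Dock2 encodes a regulator of leukocyte migration. Closest to Igha alone were Rassf7, 1190002N15Rik, Xaf1, Trafd1 and Neurl2 (r = 0.90 each). For Rassf7 and Trafd1 r was 0.46 and 0.37 within the control group, so their likeness was weaker there than among the swimming tumors.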

How the data were processed

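RNA-seq of 6 control and 6 swimming tumors was used, each tumor from a separate mouse. The authors deposited 1 FPKM value per gene and tumor. The submitters' processing notes name HISAT2 2.0.5, StringTie 1.3.3 and limma, and both hg38 and GRCm38, while the study's methods name hg38. The files list mouse Ensembl identifiers, of which 30542 of 30630 were named from GENCODE M21 (GRCm38), the remaining 88 being left without a name. Read counts are not given, so depth is known only relatively, and FPKM carries no counting interval. The reference is of the C57BL/6 strain and the mice were BALB/c; the effect on antibody genes was not tested.

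FPKM values were tested as log2(FPKM + 1) with limma 3.58.1 (R 4.3.3, unpaired fit, mean-variance trend) over the 19018 genes that reached 0.1 FPKM in 6 or more tumors, with Benjamini-Hochberg adjustment. The cut-off was a fold above 2 with an unadjusted p below 0.05, after the study's methods. It was passed by 20 genes (0.105%), 13 higher and 7 lower in the swimming group, and no gene had an adjusted p below 0.05 (smallest 0.204). The script was tested on simulated data. Shares, ratios and correlations were computed with Python 3.11.15 and pandas 2.3.3.

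The members and lists were chosen with earlier results of these data known. Named genes were all members, list genes at an unadjusted p below 0.05 (at most 6 per list), defining genes whatever their value (of which 2 are not reported here), the 5 genes most like the members and like Igha, and the top variable segments. Cd5, Cd3d, Cd8a, Cd72, Spib, Tnfrsf13b, Igkv6-15, Tnfsf13b, Cxcl12, Hspa5, Ighd, Madcam1, Fcer2a, Cr2, Cxcl13, Clu, Krt20, Krt18, Epcam and Cdh1 were named after their values were seen. Replicate numbers were not used to pair tumors, since the labels do not state that they do. The mean correlation of deviations from the group means was -0.12 for equal and 0.0246 for unequal numbers. Centering within each group largely ties these means to each other, so they cannot settle whether tumors were paired.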

Additional observations from a re-analysis of the deposited data

Results flagged for a closer look

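A gap test for samples far from the rest of their group (Dixon's test at 95%) was applied to 78 groups of 6 tumors, and 15 values passed. About 1 in 20 groups, or 3.9, would pass by chance if values were normally spread and groups independent. Many groups hold antibody transcripts of the same tumors, which rise together, and FPKM near 0 is not normally spread. The 15 are therefore a description and are not weighed against 3.9. Of the 15, 12 were values of control tumor 1. In that tumor Igha was at 7.79 FPKM against 1.9 to 3.44 in the other control tumors, Ighg1 at 0.303 against at most 0.111, Iglc1 at 1.48 against at most 0.445 and Iglc2 at 1.47 against at most 0.132. Ighg2c was at 1.15 against 0.145 to 0.396 FPKM, and Iglc3 at 0.621 against at most 0.131. The variable segments summed to 51.3 FPKM against 6.7 to 22.8.

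B cell genes stood out in the same tumor: Ms4a1 at 0.204 FPKM, Cd79a at 2.67, Pax5 at 0.298, Pou2af1 at 1.11 and Ighd at 2.04. Of the lymph node stroma list, Madcam1, the vascular address of mucosal lymphoid tissue, was at 0.567 FPKM in control tumor 1. It was at 0 in the other control tumors and at 0.0404 and 0.188 in swimming tumors 2 and 3. Fcer2a and Cr2, also B cell genes, were highest in control tumor 1, at 0.413 and 0.123 FPKM. Cxcl13 was at 0.61 there and 0.59 in control tumor 3, and Clu at 10.7 there and 18.3 in control tumor 4. The summed list was at 12.5 FPKM in control tumor 1 and 18.5 in control tumor 4.

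In swimming tumor 5, Ighg1 was at 3.38 FPKM against at most 0.684 in the other swimming tumors, and the IgG share of heavy-chain transcript was 18.5% against 6.46 to 10.9%. In control tumor 4, Txndc5 was at 48.1 FPKM against 72.9 to 83.5 in the other control tumors.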

How the results depend on the processing

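The number of genes past the cut-off depended most on the pseudocount: 20 genes at 1, 138 at 0.1 and 229 at 0.01 FPKM. The member median moved with it, from 0.47 to 1.14 and 1.35, and Ighg3 changed from lower to higher at 0.01. A filter of 1 FPKM left 47 companion genes, 3 of them at an unadjusted p below 0.05. Within the control group, r was 0.94 for Igha with Igkc and 0.92 for Igha with Jchain. No filter, quantile normalization, trimmed mean scaling and no trend gave 18, 21, 20 and 20 genes past the cut-off and 8 companion genes each.

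Leaving out 1 tumor at a time gave 10 genes past the cut-off (without swimming tumor 5) to 41 (without swimming tumor 1), 0 to 3 genes at an adjusted p below 0.05 (3 without control tumor 4) and 5 (without control tumor 5) to 13 (without control tumor 1) companion genes. The member median ranged from 0.29 to 0.58, the difference in Igha share from 5.91 to 13.5 and in kappa share from -2.27 to 0.0473 percentage points. For Igha with Igkc r was 0.97 to 0.98, with Jchain 0.98 to 0.99, and with Ighm 0.67 to 0.88. The Igha difference was 0.92 to 1.43, that of Igkc 1.14 to 1.65, of Jchain 0.73 to 1.16 and of Ighm 0.35 to 0.72.

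When the replicate number entered the fit as a block, 15 genes passed the cut-off, 0 at an adjusted p below 0.05, and 7 companion genes passed an unadjusted p of 0.05. Of the genes whose calls are read, Slamf7 and Il21r lost that threshold. The labels do not state that the numbers pair tumors.

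Read counts are unknown, and Ighg1, Ighg3, Iglc1, Iglc2 and Mzb1, listed at 0 in some tumors, are less certain than Igha, Igkc, Ighm and Jchain.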
